A study of Mus musculus with 10 samples.

Results

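A set of 7 genes whose reads within mouse dorsal skin came almost wholly from Ebf2+ stromal cells were followed across all libraries. Gcg, Reln, Pcp4l1, Olfr558, Rgs16, Adap2 and Apold1 are 7 of the 14995 genes in the count table, and each was matched by its symbol. They were chosen by the measured read counts of the skin libraries, as near absent in skin Ebf2- cells and higher in skin Ebf2+ cells. The difference between the skin groups is therefore a description with no test. The name "nearly private" held within skin. Across tissues it held for Gcg, Reln, Olfr558 and Adap2, whereas Pcp4l1, Rgs16 and Apold1 also had reads in every bone marrow library.

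RNA was sequenced from 3 groups of freshly sorted cells, all CD45-, TER119- and CD31- and therefore sorted away from blood and blood vessel lining cells. Skin Ebf2+ cells (3 libraries) and skin Ebf2- CD140a+ Sca1+ cells, called PαS (3 libraries), came from the dorsal skin of FVB/N mice aged 8 to 12 weeks. Bone marrow mesenchymal stem cells, sorted as Sca1+ CD51+ (4 libraries), came from C57BL/6 mice aged 8 to 10 weeks. The labels name no treatment and do not say how Ebf2 was detected for the sort, and the skin Ebf2+ gate carries no CD140a or Sca1 requirement in the labels whereas the Ebf2- gate does. Tissue, strain and sort differ together between skin and marrow, so their parts in any difference between skin and marrow cannot be told apart. Bone marrow libraries 1 to 3 carry a label that credits them to another published study, and library 4 does not.

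Total counts were 9830418 to 12982661 in skin Ebf2+, 11637842 to 14149713 in skin Ebf2- and 18122495 to 39422062 in bone marrow. Values are raw read counts or counts-per-million values (CPM, scaled by the trimmed mean of M-values, TMM, over the 10 libraries). Ebf2 itself had 210, 317 and 157 CPM in skin Ebf2+ libraries 1, 2 and 3, against 47.1 to 73.5 CPM in the Ebf2- libraries. The marrow libraries had 141 to 337 CPM. Skin Ebf2+ and Ebf2- therefore did not overlap for Ebf2, and the transcript was still present in the Ebf2- cells. Bone marrow libraries 1 and 4 were close to identical, with a median chi-square per gene of 0.936 where 0.455 is the value for sampling noise alone, so the marrow results of the 7 genes are also given with the pair summed. The skin libraries numbered 3 stood apart by a low share of the ribosomal RNA gene Rn45s (0.593% in Ebf2+ and 0.17% in Ebf2-, against 3.04% to 12.5% in the other libraries).

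The genes belong to separate pathways. Gcg encodes proglucagon, the precursor that prohormone convertases cut into glucagon in pancreatic alpha cells and into glucagon-like peptides in the gut and brainstem. Reln encodes reelin, a large secreted glycoprotein that binds the receptors encoded by Vldlr and Lrp8 and guides neuron placement in the developing brain. Olfr558 encodes an odorant receptor, a G protein coupled receptor of a family best known from the olfactory epithelium. Rgs16 encodes a regulator of G protein signalling, which speeds GTP hydrolysis on Gαi and Gαq subunits. Adap2 encodes a GTPase-activating protein for Arf proteins, small GTPases of membrane traffic. Pcp4l1 encodes a small relative of the calmodulin-binding protein Pcp4, and Apold1 a membrane-associated protein described as an early response gene of vascular endothelium.

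The promoter windows of the genes differed widely in base composition. All 7 matched RefSeq promoter windows of GRCm38.p6, running from 250 bases before to 50 after the annotated start. The G and C share was 47.0% for Gcg, 51.3% for Olfr558, 51.7% for Apold1, 53.3% for Pcp4l1, 63.7% for Adap2, 66.0% for Rgs16 and 80.7% for Reln, where the median of all 32851 windows was 52.7%. Because the cells were sorted on Ebf2, the EBF consensus CCCNNGGG was searched, which reads the same on both strands. It occurred in 4 of the 7 windows (Gcg, Reln, Rgs16 and Adap2) and in 13.7% of all windows. The part of the G and C share in this count was not tested. The CArG box, the element bound by serum response factor, occurred in 0 of the 7 windows and in 1.63% of all windows. The TATA element TATAAA, searched on both strands after the sequences had been seen, occurred in 3 of 7 (Gcg, Pcp4l1 and Apold1) and in 13.6% of all windows.

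The 250 bases before the start are shown for Gcg, which has a TATA element next to its start, and for Reln and Rgs16, each with a pair of EBF consensus matches. Sequences are on the gene's strand, and capitals mark the EBF consensus in Reln and Rgs16 and the TATA element, including a match on the opposite strand, in Gcg.
Gcg, chr2:62483654-62483903, minus strand: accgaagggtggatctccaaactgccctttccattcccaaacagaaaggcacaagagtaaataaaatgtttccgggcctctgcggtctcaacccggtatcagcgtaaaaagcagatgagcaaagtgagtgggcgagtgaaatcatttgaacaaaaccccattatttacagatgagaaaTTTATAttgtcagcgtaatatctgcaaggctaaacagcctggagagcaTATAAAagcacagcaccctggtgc
Reln, chr5:22344706-22344955, minus strand: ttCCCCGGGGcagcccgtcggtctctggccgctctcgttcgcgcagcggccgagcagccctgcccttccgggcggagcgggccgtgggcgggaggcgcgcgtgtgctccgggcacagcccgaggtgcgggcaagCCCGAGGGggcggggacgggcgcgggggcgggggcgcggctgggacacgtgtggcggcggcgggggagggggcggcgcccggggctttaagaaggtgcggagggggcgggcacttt
Rgs16, chr1:153740103-153740352, plus strand: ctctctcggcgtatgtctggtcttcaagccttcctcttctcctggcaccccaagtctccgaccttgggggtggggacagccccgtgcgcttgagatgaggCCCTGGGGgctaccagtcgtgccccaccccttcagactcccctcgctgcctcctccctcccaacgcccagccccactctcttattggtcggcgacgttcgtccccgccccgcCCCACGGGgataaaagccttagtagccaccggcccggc
Shorter windows show the remaining matches, with the motif in capitals: the EBF consensus for Gcg, which lies after the start, and for Adap2, and the TATA element for Pcp4l1 and Apold1. For Adap2 the start used for the promoter window lies within the gene span given below.
Gcg, EBF consensus from base +39, chr2:62483604-62483633, minus strand: caggacacactcaaagttCCCAAGGGgact
Adap2, EBF consensus from base -97, chr11:80154054-80154083, plus strand: gggcctgctgtCCCGTGGGcggggtcggcg
Pcp4l1, TATA element from base +1, chr1:171196251-171196280, minus strand: accgcagctcacTATAAAaggtggagccgg
Apold1, TATA element from base -32, chr6:134981957-134981986, plus strand: gctcctgggagcTATAAAgtatgctcgtcc
Each match describes letters in the window and does not show that a factor binds there.

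Among the secreted ligands, Gcg (Entrez ID 14526, chr2:62474530-62483653, minus strand) had 87, 652 and 308 reads in skin Ebf2+ libraries 1, 2 and 3. It had 0 reads in each of the 3 skin Ebf2- and 4 bone marrow libraries. The Ebf2+ levels were 10.1, 56.8 and 24.2 CPM, a mean of 30.4 ± 24.0 CPM (SD, n = 3), which is at least 414-fold above a floor of 3 reads over the whole Ebf2- group. All Gcg reads of the series thus lay in the Ebf2+ group, in each of its libraries.

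Reln (Entrez ID 19699, chr5:21884454-22344705, minus strand) had 412, 1968 and 1007 reads in skin Ebf2+, 0, 1 and 8 in skin Ebf2-, and 0, 2, 0 and 0 in bone marrow. The corresponding levels in skin Ebf2+ were 47.9, 171 and 79.0 CPM. The mean was 99.4 ± 64.3 CPM (SD, n = 3) in skin Ebf2+ and 0.232 ± 0.344 CPM (SD, n = 3) in skin Ebf2-, a 428-fold ratio. The lowest Ebf2+ library was 76.2 times the highest Ebf2- library, and 8 of the 9 Ebf2- reads came from library 3.

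The receptor gene Olfr558 (Entrez ID 259097, chr7:102702323-102712054, plus strand) had 126, 600 and 72 reads in skin Ebf2+, or 14.6, 52.3 and 5.65 CPM. There was 1 read in the skin Ebf2- group, in library 2, and 0 in the 4 bone marrow libraries. The ratio of summed, depth-scaled reads to skin Ebf2- was 994, with an exact 95% counting interval of 178 to 39299 that covers counting error only. The interval is wide because it rests on 1 read. Odorant receptor genes have close copies, and the sources do not state how reads shared between copies were counted.

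Among the genes that act inside the cell, Rgs16 (Entrez ID 19734, chr1:153740353-153745468, plus strand) had the highest level of the 7. It had 1824, 5420 and 1341 reads in skin Ebf2+, 39, 5 and 31 in skin Ebf2-, and 7, 161, 187 and 6 in bone marrow. The means were 263 ± 189 CPM (SD, n = 3) in skin Ebf2+, 1.88 ± 1.34 CPM (SD, n = 3) in skin Ebf2- and 3.53 ± 3.81 CPM (SD, n = 4) in bone marrow. The lowest Ebf2+ library, 105 CPM, was 36.9 times the highest Ebf2- library and 13.4 times the highest marrow library. Rgs16 was therefore low but present outside Ebf2+ cells, with marrow libraries 2 and 3 above both marrow libraries 1 and 4.

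Adap2 (Entrez ID 216991, chr11:80154044-80178827, plus strand) varied most among Ebf2+ libraries. It had 132, 791 and 48 reads there, or 15.3, 68.9 and 3.76 CPM, an 18.3-fold range. It had 1, 0 and 1 reads in skin Ebf2- and 1, 0, 0 and 0 in bone marrow. The groups did not overlap, and the ratio of summed, depth-scaled reads to skin Ebf2- was 605 (exact 95% counting interval 167 to 4999).

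Pcp4l1 (Entrez ID 66425, chr1:171173264-171196268, minus strand) had 278, 792 and 152 reads in skin Ebf2+ and 0 in each skin Ebf2- library. It had 23, 63, 83 and 27 reads in the marrow libraries, so skin Ebf2- was the group without reads. The Ebf2+ mean was 37.7 ± 28.9 CPM (SD, n = 3), at least 514-fold above a floor of 3 reads over the Ebf2- group, and the marrow mean was 2.01 ± 0.927 CPM (SD, n = 4). Every Ebf2+ library lay above every marrow library, and every marrow library above every Ebf2- library.

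Apold1 (Entrez ID 381823, chr6:134982001-134986836, plus strand) was the least private of the 7. It had 699, 1070 and 275 reads in skin Ebf2+, 41, 17 and 29 in skin Ebf2-, and 37, 25, 430 and 29 in bone marrow. The means were 65.3 ± 38.4 CPM (SD, n = 3), 2.15 ± 0.919 CPM (SD, n = 3) and 4.35 ± 5.72 CPM (SD, n = 4), a 30.4-fold ratio between the skin groups. Bone marrow library 3, at 12.9 CPM, was the closest of all other libraries to the lowest Ebf2+ library at 21.6 CPM.

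**Figure D1:**
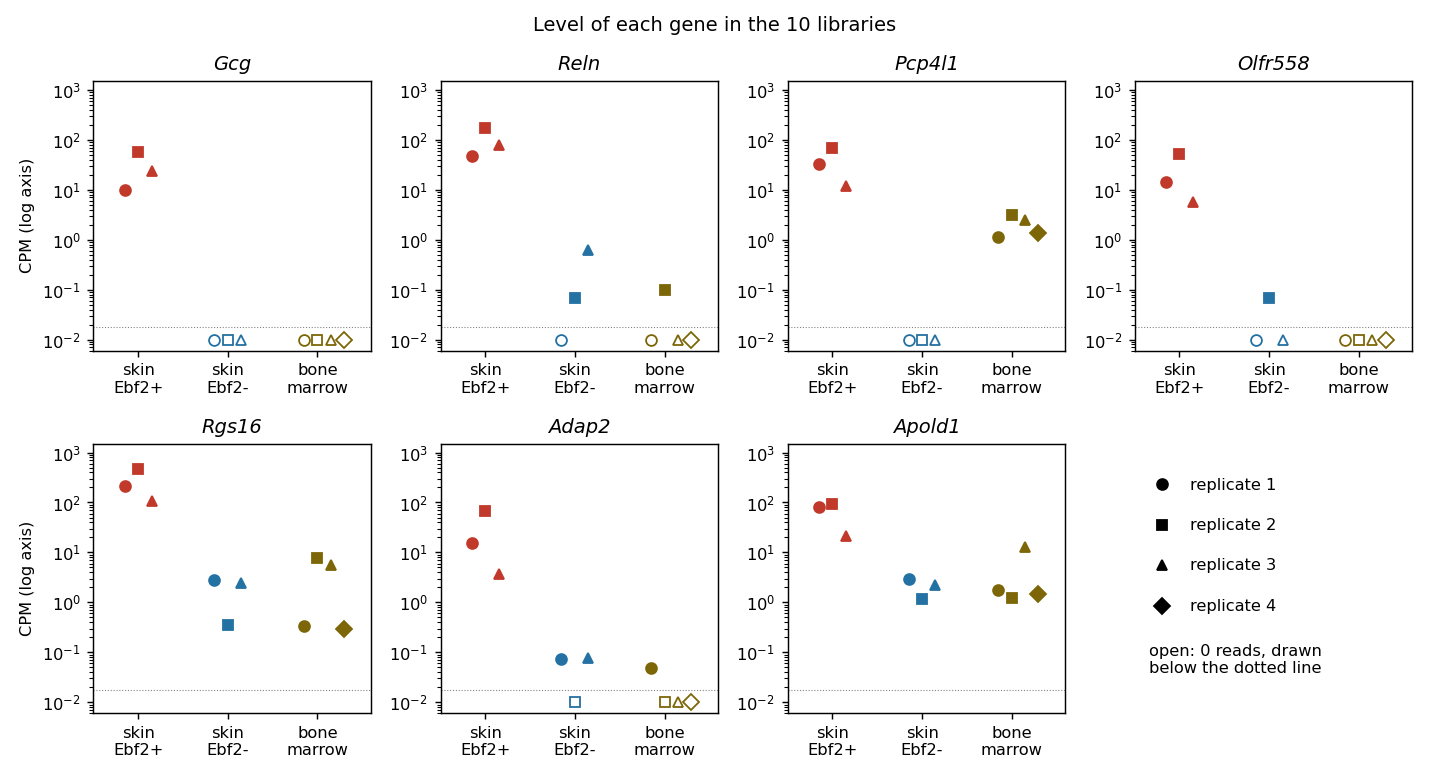
Level of each gene in every library, in CPM on a log axis, with 1 panel per gene, colour for the group and marker shape for the replicate number; open markers are libraries with 0 reads, drawn below the dotted line. In every panel the 3 skin Ebf2+ libraries lie above all other libraries; Pcp4l1, Rgs16 and Apold1 have reads in all 4 bone marrow libraries, and Gcg has reads only in skin Ebf2+.

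In these bulk libraries, fewer cells of a type and less RNA per cell cannot be told apart. All 7 genes passed the low-count filter, which they could do through the Ebf2+ libraries alone. None of the 7 groups of Ebf2+ values overlapped the Ebf2- values, as the choice of genes fixes, where 3.0% of 13477 genes tested were higher without overlap. The edgeR quasi-likelihood test between the skin groups called 0.0% of genes at an adjusted p under 0.05. It gave 343 genes at an unadjusted p under 0.05, with a lowest adjusted p of 0.208. DESeq2 called 130 genes, and edgeR with the replicate number as a block, which paired the skin libraries, called 8. The fitted log2 fold changes of the 7 ranged from 4.92 for Apold1 to 11.86 for Pcp4l1, where the median of all genes was 0.01.

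**Figure D2:**
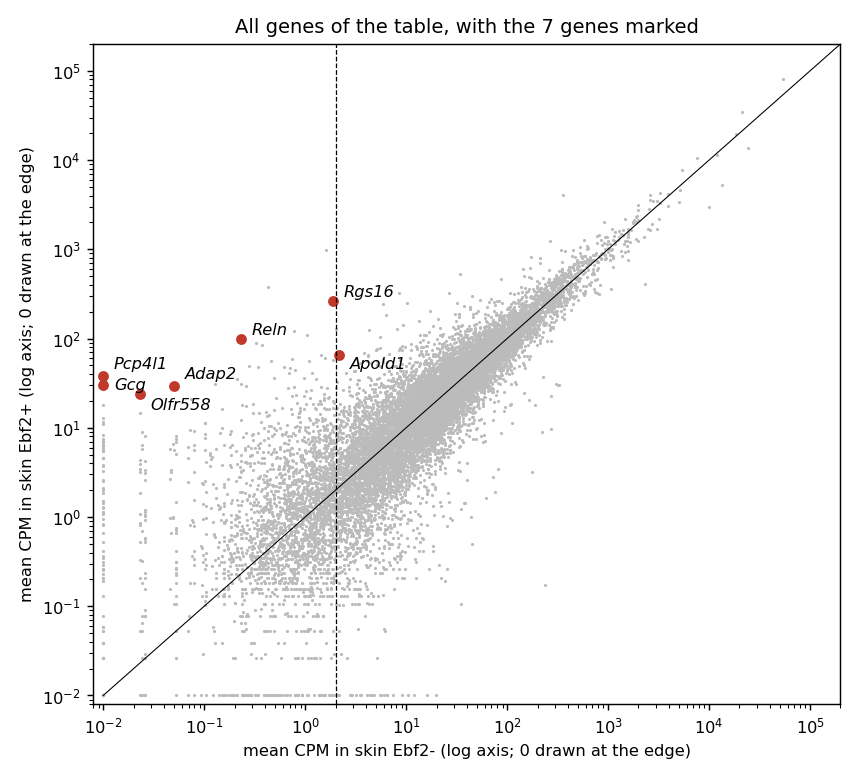
Mean CPM of every gene in skin Ebf2- (horizontal, log axis) and skin Ebf2+ (vertical, log axis), with genes at 0 drawn at the edge, the line of equal levels, and a dashed line at 2 CPM in skin Ebf2-. The 7 genes, in red, lie far above the line of equal levels, between 24.2 CPM for Olfr558 and 263 CPM for Rgs16 in skin Ebf2+.

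The 3 skin Ebf2+ libraries did not contribute equally. Library 2 was highest for each of the 7 genes and held between 47.6% (Apold1) and 78.3% (Adap2) of the CPM summed over the 3 libraries. For Gcg and Reln library 3 came next and library 1 was lowest. For Pcp4l1, Olfr558, Rgs16, Adap2 and Apold1 library 1 came next and library 3 was lowest. Among 10795 genes with a mean of at least 5 CPM in skin Ebf2+, these orders were seen in 16.1% and 18.5%. Ebf2 had the second order but a flatter split, with 30.7%, 46.4% and 22.9% in libraries 1, 2 and 3. Without library 2, the mean of the other libraries was 17.1 CPM for Gcg, 63.4 CPM for Reln, 22.1 CPM for Pcp4l1, 10.1 CPM for Olfr558, 159 CPM for Rgs16, 9.55 CPM for Adap2 and 51.4 CPM for Apold1. Each Ebf2+ library alone lay above every library of both other groups, so leaving library 2 out could not change that order.

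**Figure D3:**
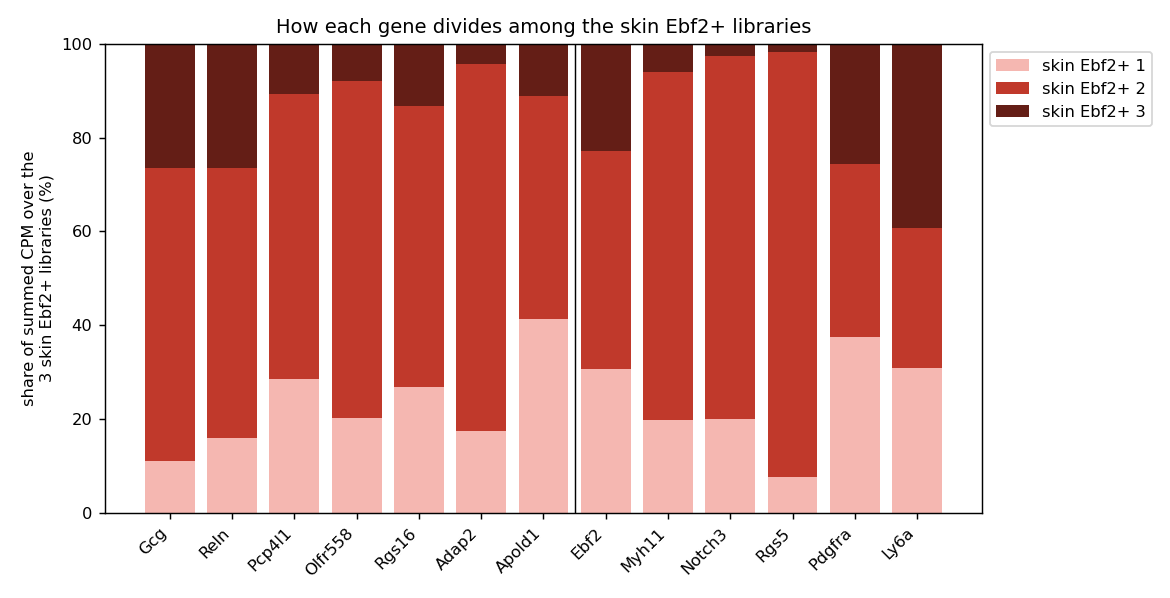
Share (%) of the CPM summed over the skin Ebf2+ libraries that each of the 3 libraries holds, with the 7 genes left of the vertical line and the markers Ebf2, Myh11, Notch3, Rgs5, Pdgfra and Ly6a right of it. Library 2 holds the most of each of the 7 genes and of Myh11 (74.3%), Notch3 (77.5%) and Rgs5 (90.7%), but 36.8% of Pdgfra and 29.9% of Ly6a.

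The library order was also that of mural cell genes, those of the smooth muscle cells and pericytes that wrap blood vessels. The summed level of 21 mural genes was 2620, 7060 and 2030 CPM in skin Ebf2+ libraries 1, 2 and 3, against 630 to 1150 CPM in the Ebf2- libraries and 1180 to 1550 CPM in the marrow libraries. Of these 21 genes, 10 had the order of Rgs16 and 8 that of Gcg, whereas 1 was highest in library 1 and 2 in library 3. Myh11, the smooth muscle myosin heavy chain, had 223, 843 and 67.5 CPM in skin Ebf2+ and at most 0.76 CPM in skin Ebf2-. Acta2 had 224, 991 and 389 CPM, Notch3 192, 746 and 24.1 CPM, and the pericyte gene Rgs5 11.2, 134 and 2.67 CPM. Of 20 mural genes tested between the skin groups, 18 had a positive log2 difference. Kcnj8 and Ndufa4l2 went the other way, with means of 26.9 and 11.1 CPM in skin Ebf2+ and 73.1 and 36.4 CPM in skin Ebf2-. The part of mural cells in the levels of the 7 genes was not tested.

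Endothelial markers did not share 1 order of libraries. The summed level of 10 blood endothelial genes was 376, 107 and 427 CPM in skin Ebf2+, against 172 to 232 CPM in skin Ebf2-. Tek alone, with 341, 19.3 and 240 CPM, made up most of the sums of Ebf2+ libraries 1 and 3, so the order of the sums is largely its own. Pecam1, which encodes the CD31 used to remove these cells, had 0, 0 and 20.9 CPM, whereas Cdh5 had 0.581, 8.02 and 0.784 CPM and Esam 5.93, 48.4 and 39.4 CPM, both highest in library 2. The 5 lymphatic endothelial genes summed to 237, 391 and 91.8 CPM, also highest in library 2, against 66.4 to 122 CPM in the Ebf2- libraries. Of these, Prox1 had 0, 0 and 0.706 CPM and Lyve1 9.06, 0.61 and 0 CPM in skin Ebf2+. Nr2f2, a gene shared by lymphatic and venous cells, had 103, 272 and 46.8 CPM there and 5.26 to 16.7 CPM in skin Ebf2-. Pdpn had 125, 118 and 43.9 CPM in skin Ebf2+, and with Nr2f2 it made up most of the lymphatic sums. The part of endothelial cells in the levels of Apold1 and the other genes was not tested.

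Keratinocyte genes summed to 355, 22.1 and 1300 CPM in skin Ebf2+, lowest in library 2, where Krt5 had 0.174 CPM and Krt14 0.349 CPM. The leukocyte list reached at most 79.6 CPM in the Ebf2+ libraries, with Ptprc at 0, 0 and 0.863 CPM. It reached 1130 CPM in Ebf2- library 2, where Cd3e had 708 CPM. The Schwann and melanocyte list ranged from 17.1 to 118 CPM in the Ebf2+ libraries and from 14 to 69.5 CPM in the Ebf2- libraries, and Sox10 is not among the genes analysed here. The fat cell list summed to 571, 814 and 460 CPM in the Ebf2+ libraries, highest in library 2, and to 461 to 530 CPM in the Ebf2- libraries. In it, Adipoq had 0 reads in skin Ebf2+, whereas Fabp4 had 40.9, 138 and 36.1 CPM and Cd36 88.4, 176 and 40.0 CPM there, in the library order of Rgs16, with means of 14.2 and 36.1 CPM in skin Ebf2-. The part of these cell types in the levels of the 7 genes was not tested. The fibroblast list ranged from 34600 to 58600 CPM in the Ebf2+ libraries and from 33700 to 133000 CPM in the Ebf2- libraries, so both skin groups held reads of fibroblast genes.

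**Figure D4:**
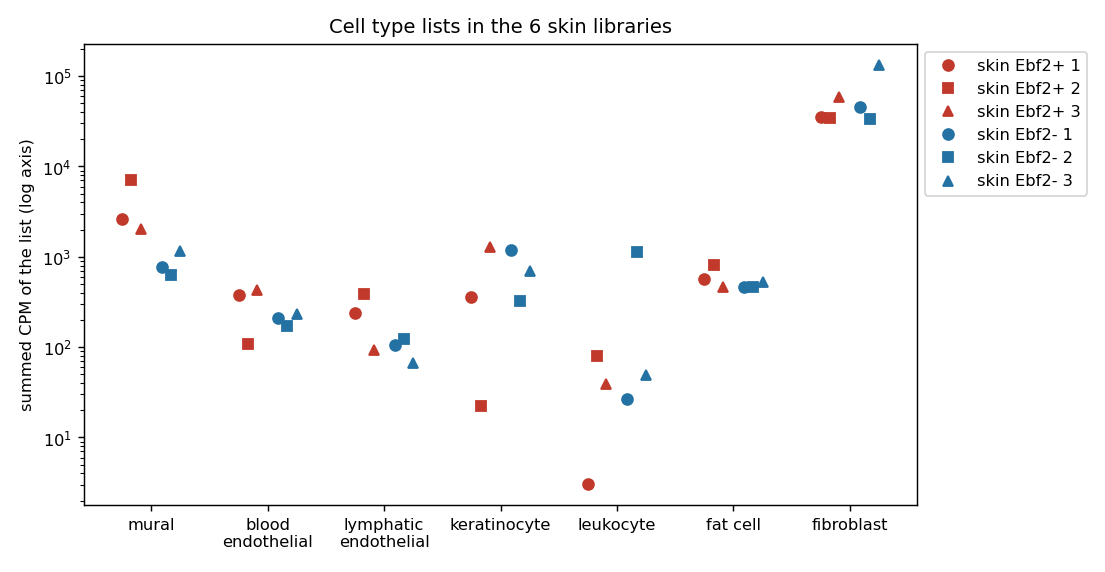
Summed CPM (log axis) of 7 cell type lists in each skin library, with colour for the group and marker shape for the replicate number. The mural list is higher in every skin Ebf2+ library (2030 to 7060 CPM) than in every skin Ebf2- library (630 to 1150 CPM). The summed blood endothelial and keratinocyte lists are lowest, and the lymphatic endothelial list highest, in Ebf2+ library 2. Tek alone had 341, 19.3 and 240 CPM of the blood endothelial sums in Ebf2+ libraries 1, 2 and 3.

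Bone marrow took no part in the choice of the genes, but the skin Ebf2+ libraries did. This comparison is therefore not independent of the choice, Gcg, Olfr558, Adap2 and Reln passed the low-count filter only through the Ebf2+ libraries, and the number of calls is given as a description with nothing read from it. Of the 7 genes, 5 had calls higher in skin Ebf2+ by edgeR's quasi-likelihood test at a Benjamini-Hochberg adjusted p under 0.05, where 0.565% of 14520 genes tested were called higher and 0.923% in either direction. All 7 had no overlap between the groups, where 6.07% of genes tested were higher without overlap. The median log2 fold change of all genes was 0.09.

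Reln rose by 11.71 ± 1.43 (SE) on the log2 scale, with an adjusted edgeR p of 0.00246 (0.0105 with marrow 1 and 4 summed). The ratio of summed, depth-scaled reads was 4859, with an exact 95% counting interval of 1344 to 40140. Adap2 rose by 10.62 ± 1.69, with an adjusted edgeR p of 0.0121 (0.0373 summed). Gcg and Olfr558, with 0 marrow reads, were at least 953-fold and at least 760-fold above a floor of 3 reads over the marrow group. Their adjusted edgeR p-values were 0.024 (0.0458 summed) and 0.0217 (0.0461 summed), and their fitted fold changes depend on the prior count and are no bound. Rgs16 rose by 6.22 ± 1.19, 74.6-fold in mean CPM, with an adjusted edgeR p of 0.033, a call that ended when marrow 1 and 4 were summed (0.0573).

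Pcp4l1 and Apold1 did not pass the test. Because the skin Ebf2+ libraries took part in the choice of the genes, neither a call nor its absence is read as a result. Pcp4l1 had a log2 difference of 4.23 ± 0.96 (SE), an 18.8-fold ratio of means, with an adjusted edgeR p of 0.0722 (0.201 with marrow 1 and 4 summed). Apold1 had 3.91 ± 0.97, a 15.0-fold ratio, with an adjusted edgeR p of 0.0817 (0.205 summed), and 0.024 without marrow library 3. The number of the 7 called fell to 1 (Reln) without skin Ebf2+ library 2. It was 2 without skin Ebf2+ library 1, 2 without marrow library 1 and 3 without marrow library 3. Against marrow library 4 alone, which lacks that label, it was 0, and against marrow libraries 1 to 3 it was 4. With 1 marrow library the fit takes the spread of that group from the other groups; the log2 difference of Reln there was 13.38, above the 11.71 of the 4 libraries, with an adjusted edgeR p of 0.411. Over the 15 alternatives tried, the call was made in 14 for Reln (adjusted p from 4.92e-16 to 0.411), 12 for Adap2 (1.64e-10 to 0.411), 9 for Gcg (5.26e-12 to 0.411), 9 for Olfr558 (1.49e-10 to 0.411) and 5 for Rgs16 (1.19e-07 to 0.411). For Pcp4l1 (3.12e-05 to 0.551) and Apold1 (0.000554 to 0.411) it was made in 2 each. The highest p of each range came from the fit with marrow library 4 alone.

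**Figure D5:**
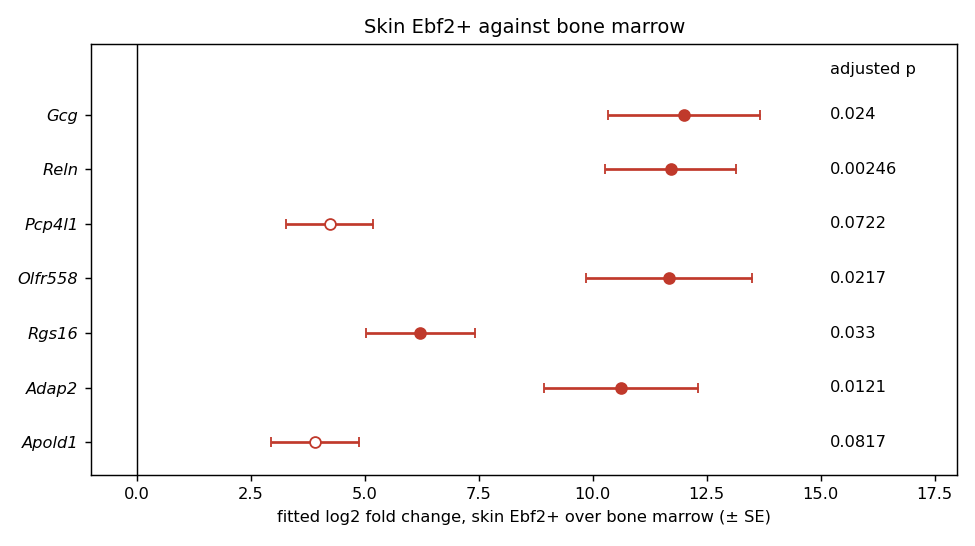
Fitted log2 fold change of skin Ebf2+ over bone marrow for each of the 7 genes, with bars of 1 standard error from edgeR and the adjusted p at the right; filled points pass an adjusted p under 0.05. Reln, Adap2, Gcg, Olfr558 and Rgs16 are filled, and Pcp4l1 (4.23) and Apold1 (3.91) are open. The skin Ebf2+ libraries took part in the choice of the genes, so the p-values are a description only.

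Skin Ebf2- cells were compared with marrow in the same fit, which called 0.73% of genes in either direction and 0.337% as lower in skin. The skin Ebf2- libraries, like the Ebf2+ libraries, took part in the choice of the genes, so low values there are fixed by it and the test is not independent. Pcp4l1 had 0 reads in skin Ebf2- against 196 in marrow, so marrow was at least 27.4-fold higher against a floor of 3 reads over the Ebf2- group. The groups did not overlap for Pcp4l1, where 9.27% of genes were lower in skin Ebf2- without overlap. Its adjusted edgeR p was 0.0428 and became 0.0818 with marrow 1 and 4 summed, and the call ended whichever library was left out (adjusted p from 6.01e-05 to 0.489 over 15 alternatives). Rgs16 and Apold1 had ratios of mean CPM of 0.532 and 0.494 with overlapping groups, and adjusted edgeR p-values of 0.799 and 0.739. For Reln there were 9 reads in skin Ebf2- and 2 in marrow, with an adjusted edgeR p of 0.381. Gcg had no reads in either group, and Olfr558 and Adap2 were at or under the floor of 3 reads in both.

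Levels were also compared between the genes per kilobase of the longest coding transcript, since a long transcript yields more reads per molecule. In skin Ebf2+ the mean was 112 CPM per kilobase for Rgs16, 27.9 for Gcg, 23.9 for Pcp4l1, 18.3 for Apold1, 16.4 for Adap2, 8.5 for Reln and 7.95 for Olfr558. Reln, next to Rgs16 in CPM, stood near the end of this order, with a transcript of 11.7 kilobases. The ranges over the 3 libraries overlapped between neighbours from Gcg to Olfr558, and the range of Rgs16 (45 to 202) overlapped that of Gcg (9.29 to 52.2).

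The count table was also searched for every gene with a mean of at most 2 CPM in skin Ebf2-, at least 5 CPM in each skin Ebf2+ library and no overlap. There were 32 such genes, and 5 of the 7 were among them. Adap2 fell just outside with 3.76 CPM in Ebf2+ library 3, and Apold1 with a mean of 2.15 CPM in skin Ebf2-. Of the 32, 11 also had a mean of at most 2 CPM in marrow, 3 of them from the 7 (Gcg, Reln and Olfr558). The highest others were a gene without a symbol in the table (991 CPM in skin Ebf2+, but 7.69 CPM in library 3), Myh11 (378 CPM), the regulator of G protein signalling Rgs4 (120 CPM), the adaptor Sorbs2 (88.6 CPM) and the matrix protein gene Tinagl1 (84.4 CPM). The mural list contributed 4 of its 21 genes (Myh11, Cnn1, Rgs4 and Tinagl1) and the blood endothelial list 1 of 10 (Esam). The count rose to 62, 63 and 69 without skin Ebf2+ library 1, 2 and 3.

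Likeness was measured as Pearson's r of log2 CPM over the 10 libraries among 11079 genes, given as a description since all genes share the libraries and the split between groups. Gcg was most like H2-M9 (r = 0.991), then Reln (0.982) and Olfr558 (0.982). Olfr558 and Adap2 were each other's closest gene (0.991), and for Reln the closest were Gcg, Tinagl1 (0.977) and H2-M9 (0.969). Gcg, Reln, Olfr558 and Adap2 had few or no reads outside skin Ebf2+. Their high r with each other is largely fixed by that and by the choice of genes, and no grouping is read from it. Rgs16 and Apold1 were closest to Col4a5 (0.959 with Rgs16), Tagln (0.958 and 0.946) and Gm13889 (0.959 with Apold1). Pcp4l1 was closest to Lmcd1 (0.949), Lama5 (0.942) and Mrps6 (0.934). Rgs16 was also like Adra2a (0.948), and Adap2 like Il6 (0.965). H2-M9, a nonclassical major histocompatibility gene, had 4.3, 21.5 and 27.9 CPM in skin Ebf2+, 0 reads in skin Ebf2- and 1 read in marrow, with an adjusted edgeR p of 0.0332 against marrow, a call that ended with marrow 1 and 4 summed.

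Endocrine genes were sparse, whereas some genes of peptide breakdown and related receptors were not. Of 19 endocrine genes, 3 were in the table, and 0 of 2 tested were called against marrow. The convertase gene Pcsk2 had 1.41 ± 0.68 CPM (SD, n = 3) in skin Ebf2+ and 2.69 ± 2.15 CPM (SD, n = 3) in skin Ebf2-, and Pcsk1 and Chga are not among the genes analysed here. Of the receptor and peptide breakdown genes, 0 of 5 were called. Glp2r, the receptor for glucagon-like peptide 2, had 2.09, 12.3 and 0.0784 CPM in skin Ebf2+. Dpp4, whose enzyme inactivates glucagon-like peptides and which is the next gene to Gcg in the table at lower coordinates, had 434 ± 266 CPM (SD, n = 3) in skin Ebf2+, 347 ± 222 CPM (SD, n = 3) in skin Ebf2- and 158 ± 73.7 CPM (SD, n = 4) in marrow. On the other side, Fap averaged 177 CPM in Ebf2+ and 131 CPM in Ebf2- cells, so the neighbours of Gcg had reads in all groups.

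For Reln, 0 of 13 pathway genes were called against marrow, with a median log2 fold change of -0.12. The receptor gene Vldlr had 104 ± 49.6 CPM (SD, n = 3) in skin Ebf2+, 37.7 ± 25.8 CPM (SD, n = 3) in skin Ebf2- and 39.5 ± 25.2 CPM (SD, n = 4) in marrow. The other receptor gene, Lrp8, had 0, 0 and 1.41 CPM in skin Ebf2+, and the highest member of the list was the integrin Itgb1 (498 CPM). Of the pair of reelin receptors, Vldlr was therefore the one with reads in every Ebf2+ library.

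Olfr558 had an odorant receptor neighbour with the same group pattern. Olfr78, which lies 26447 bases away at higher coordinates and was singled out after its values were seen, had 134, 178 and 29 reads in skin Ebf2+ and 0 in every other library. Its levels were 15.6, 15.5 and 2.27 CPM, and its adjusted edgeR p against marrow was 0.0701. The table lists 11 odorant receptor genes, and Olfr558 and Olfr78 had the highest means in skin Ebf2+. Trim68, the neighbour on the other side, averaged 3.9 CPM in the Ebf2+ and 9.29 CPM in the Ebf2- libraries. Of 9 genes of olfactory signalling, 0 were called, and Gnal, the olfactory G protein subunit, averaged 3.19 CPM in Ebf2+ and 8.88 CPM in Ebf2- cells. Gnb1, a general G protein subunit, was the highest of that list (279 CPM).

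Among 13 other RGS genes tested, 1 was called higher against marrow, where 0.565% of all 14520 genes tested were. Rgs4 rose by 4.68 ± 1.0 (SE) on the log2 scale, with an adjusted edgeR p of 0.0485, and had 56.2, 248 and 55.8 CPM in skin Ebf2+ against at most 2.12 CPM in skin Ebf2-. That call ended with marrow 1 and 4 summed, and with any library of either group left out other than skin Ebf2+ library 3. Of 27 Arf and ArfGAP genes related to Adap2, 0 were called, with a median log2 fold change of 0.06. Arf1 was the highest (351 CPM), and the paralog Adap1 had 0, 0.784 and 12.0 CPM in skin Ebf2+. Of 9 calmodulin-related genes tested with Pcp4l1, 0 were called. Nrgn, another calmodulin-binding relative of that list, had 14, 196 and 5 reads in skin Ebf2+ and 0 in every other library, too few to pass the low-count filter. It was named after its values were seen.

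Of the 3 apolipoprotein L genes in the table, relatives of Apold1, 0 were called, and Apol6 had 0, 14.4 and 2.98 CPM in skin Ebf2+. Because Apold1 responds early to stimulation, 26 immediate early and heat shock genes were listed. Against marrow 2 were called higher, where 0.565% of all 14520 genes tested were. They were Hspa1a (adjusted edgeR p of 0.00771) and Hspa1b (0.0107), with 1 call left without marrow library 1. Between the skin groups these 2 genes had higher means in Ebf2- (2260 and 1970 CPM) than in Ebf2+ (1380 and 1220 CPM). Over the whole list, 21 of 26 genes had a positive log2 difference between skin Ebf2+ and Ebf2-, the direction of Apold1, with a median of 0.5 where that of all genes was 0.01, and 0 were called.

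Against marrow, 6 of 21 mural genes were called higher and 0 lower, with a median log2 fold change of 3.18. Of all 14520 genes tested, 0.565% were called higher, with a median of 0.09. Tinagl1 rose by 7.58 ± 1.20, with an adjusted edgeR p of 0.0121, and Vtn (0.024) and Myh11 (0.039) followed, of which Tinagl1 kept its call with marrow 1 and 4 summed. The count fell to 1 with marrow 1 and 4 summed or without skin Ebf2+ library 2, marrow library 1 or marrow library 4, to 2 without skin Ebf2+ library 1 and to 3 without marrow library 2. Of the other cell type lists, 6 of 14 keratinocyte genes (among them Krt5, Epcam and Krt1) and 2 of 6 fat cell genes (Cd36 and Fabp4) were called higher. The blood endothelial (0 of 10, highest Tek at 200 CPM), lymphatic (0 of 4), leukocyte (0 of 8, highest Cd74 at 33.2 CPM), Schwann and melanocyte (0 of 7, highest Mbp at 36.4 CPM), skeletal muscle (0 of 3, highest Des at 74.1 CPM) and fibroblast (0 of 10, highest Col3a1 at 13600 CPM) lists had no calls. The keratinocyte count was 0 without marrow library 1, 2 or 3 or with only the groups compared. It was 1 without marrow library 4 or with marrow 1 and 4 summed. Without skin Ebf2+ library 1 it was 3 and without library 3 it was 4, but it rose to 9 without library 2, where the summed list was lowest. The fat cell count was 1 without skin Ebf2+ library 2, marrow library 1 or marrow library 3.

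Neither the labels nor the table state whether counting used strand, and an antisense neighbour could then add to a gene's count. In the GENCODE annotation, exons on the opposite strand share 246 bases with Reln (Gm10475), 236 with Rgs16 (Gm28513), 146 with Adap2 (Adap2os) and 101 with Olfr558 (Gm45688). None of these partners has a row of its own in the table, and Gcg, Pcp4l1 and Apold1 have no such overlap.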

How the data were processed

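RNA from sorted mouse cells was measured in 10 libraries (SMART-Seq v4 and Nextera XT, 75 bp single-end reads, per the labels' protocols); the series text names 3 mice for skin and 4 for marrow. The authors deposited a table of raw read counts per gene, and the submitters' processing notes name STAR 2.6.1d, featureCounts from Subread and DESeq2 with the mouse build GRCm38. The labels do not state how multi-mapping reads and strand were handled, and 10 columns of the authors' normalized values were not used. The table holds genes with at least 21 reads in all and reads in at least 3 libraries; 18 symbols turned into dates were restored, and 251 genes have no symbol. The 7 genes, the gene lists and the tests were chosen with earlier results of these data known.

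Counts were scaled by TMM and filtered with filterByExpr in edgeR 4.0.16 (R 4.3.3), and tested by its quasi-likelihood test with Benjamini-Hochberg adjustment over all genes tested, at 0.05. The skin groups were fitted on 6 libraries and the marrow comparisons on all 10. P-values measure the spread between libraries, which the labels do not tie to single mice. Same-numbered skin libraries deviated together from their group means (r = 0.182, 0.224 and 0.599). Skin libraries 1 and 2 crossed by number had nearly the same r (0.139 and 0.147), so only the libraries numbered 3 stood out as a pair. The main fits did not use this pairing, which entered only in the replicate block. Same-numbered skin and marrow libraries were not taken as paired (r from -0.0536 to 0.131), but the block in the marrow fits tied them by number. The floor of 3 reads equals 0.0761 to 0.305 CPM per library.

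Bone marrow libraries 1 and 4 differed by more than sampling noise (mean chi-square per gene 3.19, against 107 to 580 for other pairs within a group). Both were therefore kept, and their sum was an alternative. They were still close to identical, so the main marrow fits count near copies as separate libraries and their p-values can be too small. With the pair summed, the genes called between skin Ebf2+ and marrow fell from 134 to 51. Other alternatives were DESeq2 1.42.0, limma-voom (limma 3.58.1), DESeq2 size factors, no low-count filter, the replicate block, only the groups compared, marrow subsets and leaving out each library. Leaving out the skin libraries numbered 3 was added after the data were seen. The edgeR script was tested on simulated data. Besides the 7 genes, named genes are the 3 most alike each, list members that passed against marrow (up to 3 each way, otherwise the highest), defining cell type markers and the 5 highest others of the near-private search; further genes named were chosen after their values were seen. A further gene that the rule names is not reported here. Gene coordinates and promoter windows are from RefSeq, and strands, exons, neighbours and transcripts from the GENCODE M21 annotation, both on GRCm38.p6.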

Additional observations from a re-analysis of the deposited data

Results flagged for a closer look

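With 4 bone marrow libraries per gene, a library was marked where its gap to the nearest other library was a larger share of the group's whole range than Dixon's 95% critical value for 4 samples. Chance passes that limit in about 1 in 20 groups of independent, normally spread values, and 7 genes were looked at this way. Marrow libraries 1 and 4 were close to identical, so that rate does not hold here. Where only 1 library has reads, the gap is 1.0 whatever their number. Apold1 was marked because marrow library 3 had 12.9 CPM and the next library 1.81 CPM, a gap of 0.949 of the range. Reln was marked with a gap of 1.0 of the range, which rests on 2 reads in marrow library 2 (0.0975 CPM) where the other marrow libraries had 0. Adap2 was marked likewise with a gap of 1.0, which rests on 1 read (0.0489 CPM).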

How the results depend on the processing

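Of 707 values recomputed under other settings, 554 kept their direction and side of the threshold or moved little. That total includes the mean levels of the 7 genes, 91 of 91, which were allowed to move by the SD of their group. Leaving out a library cannot move a mean that far, so most of these level checks could not fail. The fit against marrow 1 to 3 also repeats the fit without marrow library 4. Nothing is therefore read from the total. The number of genes called between skin Ebf2+ and marrow, 134, became 1140 with DESeq2, 223 with limma-voom, 67 with the replicate block, 76 with only the groups compared, 51 with marrow 1 and 4 summed, 51 against marrow 1 to 3, 1 against marrow 4 alone and 44 to 200 with a library left out. Of the 7 genes, 5 were called; this became 1 with the replicate block, 0 against marrow 4 alone and 1 to 6 with a library left out. Between skin Ebf2- and marrow, 106 became 814 with DESeq2, 293 with limma-voom, 69 with the replicate block, 262 with only the groups compared, 47 with marrow 1 and 4 summed, 46 against marrow 1 to 3, 2 against marrow 4 alone and 34 to 58 with a library left out. The 1 call of the 7 there (Pcp4l1) became 0 with limma-voom, the replicate block, only the groups compared, marrow 1 and 4 summed, marrow 1 to 3, marrow 4 alone and 0 to 0 with a library left out. Between the skin groups, 0 became 130 with DESeq2 and 8 with the replicate block, and was 0 to 0 with a library left out and 0 without the skin libraries numbered 3. The near-private count of 32 became 21 with a limit of 1 CPM in skin Ebf2- and 34 to 69 with a skin library left out. In skin Ebf2- against marrow, the log2 difference turned positive for Rgs16 against marrow 4 alone (2.6) and for Apold1 without marrow 3 (-1.34 to 0.52 with a library left out) and against marrow 4 alone (0.56), none past the threshold. The cause of these moves was not tested; settings with fewer marrow libraries have fewer samples. Depth limits the genes with 0 to 3 reads outside skin Ebf2+, whose ratios are bounds or carry wide counting intervals.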
